A study of Sus scrofa with 40 samples.

Results

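The genes ASNS and SLC7A2 serve the supply of amino acids inside the muscle cell. They were taken by their probe names, 1 probe for ASNS and 3 for SLC7A2, and are 4 of the 15198 gene probes and 2 of the 598 genes given a symbol here. Asparagine synthetase, the product of ASNS, makes asparagine from aspartate with glutamine as nitrogen donor, and ASNS is a classical target of ATF4, the transcription factor that cells raise when amino acids run short. SLC7A2 encodes CAT2, a transporter that carries the cationic amino acids arginine, lysine and ornithine across the plasma membrane and, in its 2 protein forms, is known from liver, muscle and immune cells. Arginine taken up this way is the substrate of nitric oxide synthases and arginases.

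The samples were Longissimus muscle (LM) of 40 castrated male pigs of 2 pure breeds, the autochthonous Basque (B) and the commercial Large White (LW), with a live weight of 145 kg in the labels. Each breed was reared in a conventional system, indoors on slatted floor, or an alternative system with bedding and access to an outdoor area, which gave 4 groups of 10 pigs, each pig on its own array. RNA of the pig was labelled with Cy3 and hybridised against the same Cy5 pool of all 40 samples, with no dye swap, so that a value is log2(Cy3/Cy5) minus the array median and a negative value means less signal than in the pool. Litter mates were split between the housing systems, and the litters are not in the labels. The breeds were slaughtered at a common weight and not at a common age. Feed was set by live weight alike in both breeds, although the paper gives LW the greater appetite. Breed, age and feeding therefore cannot be told apart.

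The probes are 60 bases long and are shown because the 3 SLC7A2 probes did not give the same breed difference. They are called below by the gene and the 2 letters that begin the probe name. Capitals mark a run of 15 bases that SLC7A2-CF shares, on the reverse strand, with another probe of the array. It was the only such match of 15 bases or more between these 4 probes and the rest of the array. Of SLC7A2-CF only bases 1 to 30 are shown.
ASNS, CA780618.1_734: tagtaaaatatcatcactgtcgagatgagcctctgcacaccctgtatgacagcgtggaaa
SLC7A2-CK, CK462398.1_190: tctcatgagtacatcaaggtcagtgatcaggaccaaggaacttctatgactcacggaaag
SLC7A2-BP, BP139735.1_781: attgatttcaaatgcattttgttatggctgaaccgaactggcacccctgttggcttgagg
SLC7A2-CF, CF359313.1_1401: taGTTTTTAATCTGTGTgtggtgttaggga

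The ASNS probe and SLC7A2-CK and SLC7A2-BP each had 1 forward reading frame without a stop codon over their 60 bases and a GC content of 45.0%. SLC7A2-CF had a stop codon in every forward frame and a GC content of 38.3%. In the RefSeq annotation of Sscrofa11.1, ASNS lies on chromosome 9 at 77318341-77336290 and SLC7A2 on chromosome 17 at 5191973-5271849. Where in each gene a probe lies, in which exon or in coding or untranslated sequence, was not determined here.

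Expression of ASNS was lower in B than in LW muscle. With mean spot signals, the 20 B pigs ranged from -0.32 to 0.16 with a median of -0.12. The 20 LW pigs ranged from -0.18 to 1.41 with a median of 0.20. All 20 B pigs lay below the LW median and 11 of 20 LW pigs lay above the highest B pig, while the lower LW pigs overlapped the B range. The mean log2 ratio was -0.08 ± 0.14 (SD, n = 20) in B and 0.38 ± 0.47 (SD, n = 20) in LW. The fitted difference, B minus LW, was -0.44 (SE 0.11, 95% interval -0.67 to -0.22), which is 1.36-fold more in LW (limma, Benjamini-Hochberg adjusted P = 0.00390). Of all 12222 probes tested, 9.49% were called lower in B in this comparison.

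ASNS was a dim spot, and its difference depended on the signal used. In the pig's own channel it was well above background on 16 of 20 arrays of B pigs and on 20 of 20 arrays of LW pigs. The background-subtracted Cy3 signal ranged from 28.2 to 58.6 scanner units in B (median 40.2) and from 33.85 to 202 in LW (median 66.8). The 4 B pigs in which it was not well above background were B conventional replicate 2 and B alternative replicates 12, 16 and 17. The mean signals carried an added offset of 50. With an offset of 16 the breed difference of ASNS was -0.64 (limma, adjusted P = 0.00218), and without background correction it was -0.46 (limma, adjusted P = 0.00216).

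Agilent's processed signals gave a wider difference for the same spots. The B pigs ranged from -1.62 to 0.03 (median -0.53) and the LW pigs from -0.66 to 2.28 (median 0.36). Again all 20 B pigs lay below the LW median, and 12 of 20 LW pigs lay above the highest B pig. The means were -0.60 ± 0.47 (SD, n = 20) and 0.53 ± 0.92 (SD, n = 20). The difference was -1.12 (SE 0.24, 95% interval -1.62 to -0.63), which is 2.18-fold more in LW (limma, adjusted P = 0.000684). With these signals 14.4% of the tested probes were called lower in B. The log2 ratios that the authors deposited gave -0.9998 (SE 0.22, limma, adjusted P = 0.000922).

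**Figure D1:**
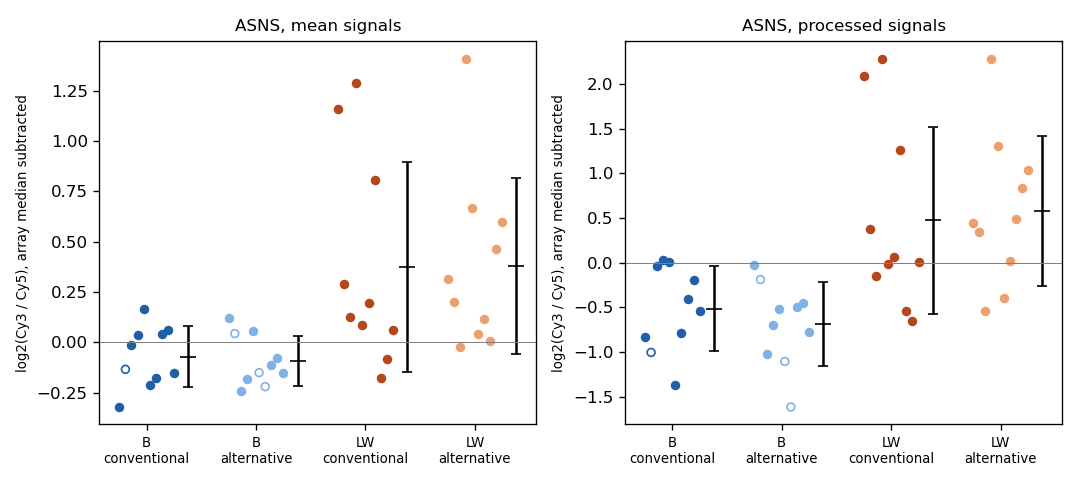
Log2(Cy3/Cy5) of ASNS in each pig, by breed and housing system, from mean signals (left) and processed signals (right); black bars are the group mean ± SD (n = 10) and open circles are arrays where the spot was not well above background in Cy3. With mean signals, which carry the offset of 50, the B pigs lie between -0.32 and 0.16 and LW pigs reach 1.41. With processed signals the B pigs lie between -1.62 and 0.03, and the vertical scales of the panels differ.

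The spread of ASNS from pig to pig was compared between the breeds and did not pass the test. The mean absolute deviation from the group median was 0.11 in B and 0.34 in LW with mean signals (difference -0.22, SE 0.08, limma, unadjusted P = 0.0117, adjusted P = 0.491). Of all tested probes, 0.0736% were called wider in LW. ASNS was dimmer in B, and the part of low signal and of the added offset in its narrower spread there was not tested. The 3 highest LW pigs were LW alternative replicate 14 at 1.41, LW conventional replicate 4 at 1.29 and LW conventional replicate 1 at 1.16, and they were hybridised on different slides. With processed signals the mean deviations were 0.37 in B and 0.68 in LW (limma, adjusted P = 0.649), with 0.172% of probes called. For the 3 SLC7A2 probes the spread did not pass the threshold either (limma, adjusted P from 0.930 to 0.989 with mean signals).

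SLC7A2 expression was lower in B than in LW with 2 of its 3 probes. In B pigs SLC7A2-CK lay between -1.35 and 0.12, with a median of -0.54, and in LW pigs between -1.16 and 0.44, with a median of 0.13. The means were -0.53 ± 0.38 (SD, n = 20) and 0.05 ± 0.38 (SD, n = 20). All 20 B pigs lay below the LW median, and 11 of 20 LW pigs lay above the highest B pig. The difference was -0.58 (SE 0.12, 95% interval -0.83 to -0.34), which is 1.497-fold more in LW (limma, adjusted P = 0.000646).

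SLC7A2-BP gave nearly the same values. B pigs ranged from -1.24 to 0.14 (median -0.43) and LW pigs from -0.72 to 0.56 (median 0.22). The means were -0.41 ± 0.37 (SD, n = 20) in B and 0.15 ± 0.32 (SD, n = 20) in LW. All 20 B pigs were again below the LW median, and 14 of 20 LW pigs were above the highest B pig. The difference was -0.58 (SE 0.10, 95% interval -0.79 to -0.37), which is 1.49-fold more in LW (limma, adjusted P = 0.000124). Both probes were well above background on all 40 arrays in both channels.

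SLC7A2-CF did not pass the test with mean signals. B pigs ranged from -0.11 to 0.66 (median 0.11) and LW pigs from -0.08 to 0.65 (median 0.29), so that no LW pig lay above the highest B pig. The means were 0.15 ± 0.20 (SD, n = 20) and 0.28 ± 0.20 (SD, n = 20). The difference was -0.11 (SE 0.06, 95% interval -0.23 to 0.01; limma, adjusted P = 0.193). This probe was also dim, with a background-subtracted Cy3 signal of 29.6 to 95.7 in B and 30.8 to 102.5 in LW, and was well above background on 19 of 20 B arrays and 20 of 20 LW arrays. With mean signals, 3 of the 4 probes of the 2 genes were thus called lower in B, beside 9.49% of all tested probes. The 4 probes were named from a list of genes found higher in LW on these same arrays.

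**Figure D2:**
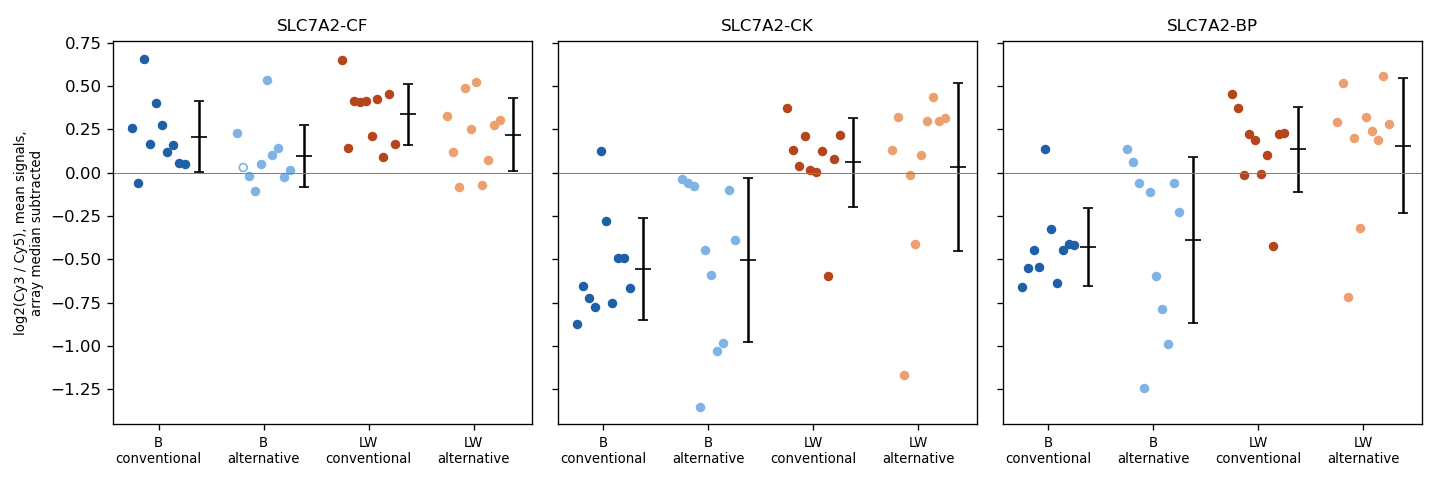
Log2(Cy3/Cy5) from mean signals of the 3 SLC7A2 probes in each pig, by breed and housing system, on 1 shared vertical axis; black bars are the group mean ± SD (n = 10) and an open circle is an array where the spot was not well above background in Cy3. For SLC7A2-CK and SLC7A2-BP the B pigs lie mostly below the LW pigs, with a few LW pigs down to -1.16, while the groups of SLC7A2-CF overlap.

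With processed signals all 4 probes were called lower in B, where 14.4% of tested probes were. SLC7A2-CK differed by -0.69 (SE 0.14, adjusted P = 0.000344), SLC7A2-BP by -0.80 (SE 0.14, adjusted P = 6.56e-05) and SLC7A2-CF by -0.40 (SE 0.15, adjusted P = 0.0403), all with limma. SLC7A2-CF went in B from -0.81 to 1.00 (median -0.12) and in LW from -0.87 to 1.16 (median 0.52) with these signals. Over the 40 fits that left out a single pig the difference lay between -0.48 and -0.33, and the call was lost in 19 of them. The pigs left out in those 19 fits were B conventional replicates 2, 6, 8 and 9, B alternative replicates 13, 14, 15, 17 and 20, LW conventional replicates 1, 4, 6 and 9 and LW alternative replicates 11, 14, 15, 16, 18 and 19. In the log2 ratios deposited by the authors its difference was -0.29 (SE 0.13, limma, adjusted P = 0.0890).

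The list that names these probes holds the genes that the study found higher in LW on these same arrays. The direction of the breed difference is therefore part of how the probes came to be named, and these tests are no independent evidence of it.

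**Figure D3:**
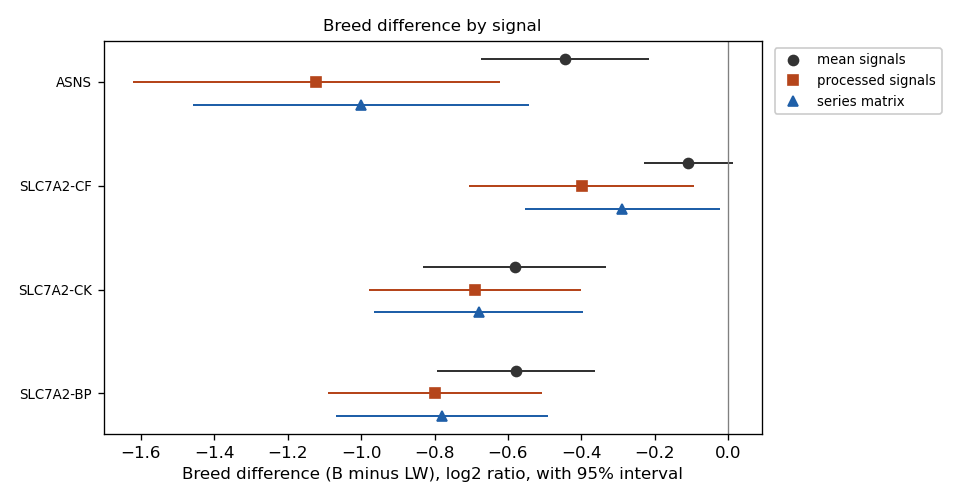
Breed difference (B minus LW) of the log2 ratio of each probe with its 95% interval, from mean signals (circles), processed signals (squares) and the log2 ratios deposited by the authors (triangles). ASNS moves from -0.44 to -1.12 with the signal used, and the interval of SLC7A2-CF includes 0 with mean signals.

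The disagreement among the SLC7A2 probes was tested on their within-array differences. SLC7A2-CK and SLC7A2-BP gave breed differences that lay 0.00 apart (SE 0.04, limma, adjusted P = 0.961). SLC7A2-CF gave a smaller breed difference than SLC7A2-CK by 0.47 (SE 0.13, adjusted P = 0.00249), and the contrast of SLC7A2-BP minus SLC7A2-CF was -0.47 (SE 0.11, limma, adjusted P = 0.000550). Disagreement of this kind was common, as 43.3% of the 97 pairs of probes with a shared symbol were called. These pairs come only from the list of genes higher in LW. The paper describes the fold changes of genes with several probes as similar in every case. With processed signals neither contrast with SLC7A2-CF passed (0.29 and -0.40, adjusted P = 0.279 and 0.130, limma), while SLC7A2-BP then differed from SLC7A2-CK by -0.11 (SE 0.04, limma, adjusted P = 0.0234). The deposited log2 ratios gave -0.49 for SLC7A2-BP minus SLC7A2-CF (limma, adjusted P = 0.0292) and 0.39 for SLC7A2-CF minus SLC7A2-CK (limma, adjusted P = 0.0895). SLC7A2-CF was dim beside SLC7A2-CK, with median background-subtracted Cy3 signals in B of 43.8 and 364. In LW they were 53.7 and 623. The offset of 50 shrinks ratios of dim spots more, and its part in the disagreement was not tested.

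SLC7A2-CK and SLC7A2-BP also ranked the pigs alike within each breed. Over 20 B pigs Pearson's r was 0.96 and Spearman's rho 0.95, and over 20 LW pigs r was 0.92 and rho 0.75 (permutation test with 100000 resamples, two-sided, adjusted P = 6.00e-05 for either r over 12 relations, which rests on the smallest P these resamples can give, and 0.000120 and 0.00156 for rho). Without the 2 pigs farthest from the median, r was 0.94 in B and 0.77 in LW. After slide means were subtracted, r was 0.96 and 0.91. These 2 probes share the arrays, and at most 5 bases of sequence in a row on either strand.

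SLC7A2-CF was less closely related to them, and none of these relations passed the test. Its r with SLC7A2-CK was 0.09 in B and 0.35 in LW, and with SLC7A2-BP it was 0.09 and 0.41 (permutation test, adjusted P from 0.154 to 0.721). Without the 2 farthest pigs, r was 0.28 and 0.26 in B and -0.08 and 0.07 in LW. After slide means were subtracted, it was 0.13 and 0.20 in B and 0.42 and 0.54 in LW. SLC7A2-CF was a dim spot, and the part of low signal in its low r was not tested.

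**Figure D4:**
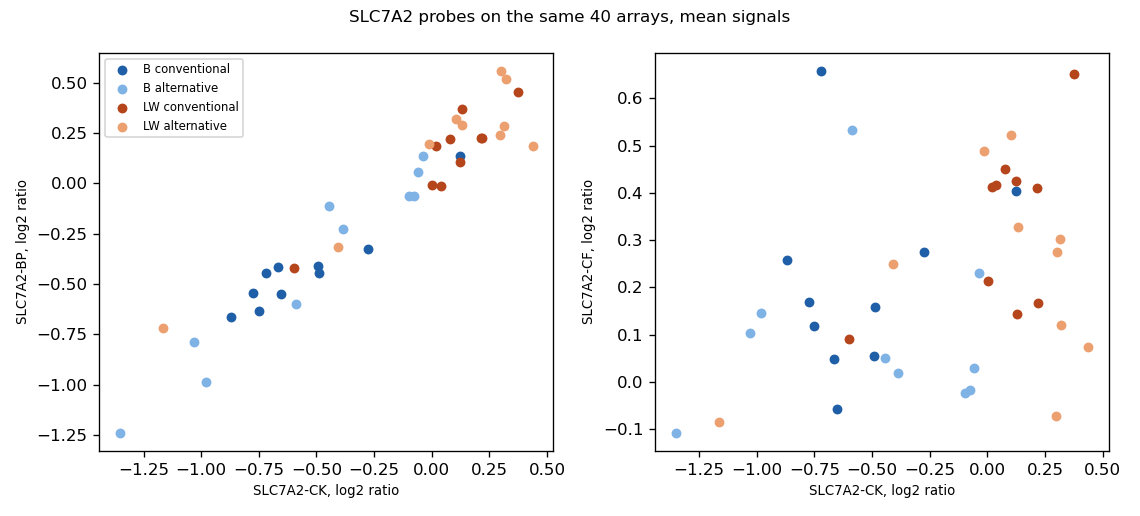
Log2 ratios (mean signals) of SLC7A2-BP (left) and SLC7A2-CF (right) against SLC7A2-CK, each point a pig coloured by breed and housing system. The points of the left panel lie along a line in both breeds (r of 0.96 in B and 0.92 in LW), and those of the right panel scatter (r of 0.09 in B and 0.35 in LW).

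The values of the ASNS probe were only loosely related to those of the SLC7A2 probes from pig to pig. ASNS and SLC7A2-CF were dim spots, and the part of low signal in these relations was not tested. In B pigs, r of ASNS with SLC7A2-BP was 0.53 (permutation test, adjusted P = 0.0490) and rho was 0.53 (adjusted P = 0.0703). With SLC7A2-CK, r was 0.48 (permutation test, adjusted P = 0.0810) and rho was 0.48 (adjusted P = 0.0982). Without the 2 pigs farthest from the ASNS median r was 0.34 and 0.26, and after slide means were subtracted it was 0.43 and 0.39. In LW pigs the same relations had r of 0.27 and 0.25 (permutation test, adjusted P = 0.384 and 0.389), while r with SLC7A2-CF was 0.54 (adjusted P = 0.0490). For this pair rho was 0.43 (permutation test, adjusted P = 0.144), and r was 0.49 without the 2 farthest pigs and 0.46 after slide means were subtracted. Of the 12 relations among the 4 probes, 4 passed by r and 2 by rho, the latter being those of SLC7A2-CK with SLC7A2-BP. With processed signals none of the 6 relations between the genes passed (permutation test, adjusted P from 0.178 to 0.382). The 3 LW pigs highest in ASNS lay between -0.01 and 0.38 for SLC7A2-CK, and LW alternative replicate 13, the lowest LW pig for SLC7A2-CK at -1.16, was at -0.03 for ASNS.

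The housing system was the second factor of the design. ASNS differed by 0.05 (SE 0.12), SLC7A2-CK by 0.03 (SE 0.13), SLC7A2-BP by 0.04 (SE 0.11) and SLC7A2-CF by -0.06 (SE 0.06), alternative minus conventional. None passed the test (limma, adjusted P = 1.00 for each), nor did any within B or within LW. With mean signals the 95% intervals reached from -0.18 to 0.29 for ASNS and from -0.23 to 0.28 for SLC7A2-CK. Processed signals gave wider intervals, from -0.49 to 0.55 for ASNS and from -0.26 to 0.33 for SLC7A2-CK. Housing differences within these intervals remain possible. Of all tested probes 0% were called for housing, where 336 had an unadjusted P under 0.05.

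No probe passed the test of an interaction between breed and housing system. In conventional pigs, ASNS had a median of -0.07 in B and 0.16 in LW, and in alternative pigs -0.13 and 0.26. The ASNS difference was -0.39 (SE 0.16, limma, adjusted P = 0.121) in the conventional and -0.49 (SE 0.16, limma, adjusted P = 0.0487) in the alternative system, and their difference was -0.10 (SE 0.22, limma, adjusted P = 0.978). SLC7A2-CK differed by -0.58 (SE 0.17) in either system, with adjusted P = 0.0293 and 0.0317 (limma), and SLC7A2-BP by -0.56 and -0.60 (SE 0.15 for each, adjusted P = 0.0141 and 0.00987). With processed signals the ASNS difference was -0.91 (SE 0.35, limma, adjusted P = 0.0775) in the conventional and -1.33 (SE 0.35, limma, adjusted P = 0.00799) in the alternative system, with an interaction of -0.42 (SE 0.49, limma, adjusted P = 1.00). The same signals gave -0.72 and -0.66 for SLC7A2-CK, -0.78 and -0.81 for SLC7A2-BP, and for SLC7A2-CF -0.24 and -0.56, of which the last probe passed in neither system (limma, adjusted P = 0.494 and 0.0699). With mean signals 2 of the 4 probes in the conventional system were called lower in B, against 2.97% of all tested probes, and in the alternative system 3 of 4, against 4.52%. Interaction was called for 0% of tested probes, with 312 at an unadjusted P under 0.05.

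These 2 counts within a housing system were fragile. Without the 6 arrays of slide 1, chosen after the values were seen, 1 probe was called in the conventional and 0 in the alternative system. Leaving out single pigs gave 1 to 2 and 1 to 3 called probes. In the conventional system the count was 1 without B replicate 1, 2, 3 or 8 or LW replicate 2, 4 or 10. In the alternative system it was 1 without B replicate 14, 16, 17 or 18 or LW replicate 11, 17, 19 or 20.

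The difference of ASNS had the same direction on every slide. It lay between -0.73 and -0.28 over the 7 slides, each of which held pigs of both breeds. The value of -0.28 was that of slide 2, which held only 1 pig of each breed. SLC7A2-CK and SLC7A2-BP were also lower in B on 7 of 7 slides, and SLC7A2-CF on 6 of 7, with 0.11 on slide 5. The difference of SLC7A2-CK and SLC7A2-BP was widest on slide 1, which was scanned apart from the others on scan day 1, at -1.28 for SLC7A2-CK and -1.22 for SLC7A2-BP (3 pigs of each breed), where that of SLC7A2-CF was -0.04. SLC7A2-CF was widest on slide 7, at -0.30. For SLC7A2-CK and SLC7A2-BP the values on scan day 2 were -0.31 and -0.34 and on scan day 3 -0.66 and -0.57. Without slide 1 the fitted differences were -0.45 and -0.46 (limma, adjusted P = 0.0149 and 0.00328), and that of ASNS was -0.46 (adjusted P = 0.0152). The part of slide and scan day in the wider values of slide 1 was not tested.

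**Figure D5:**
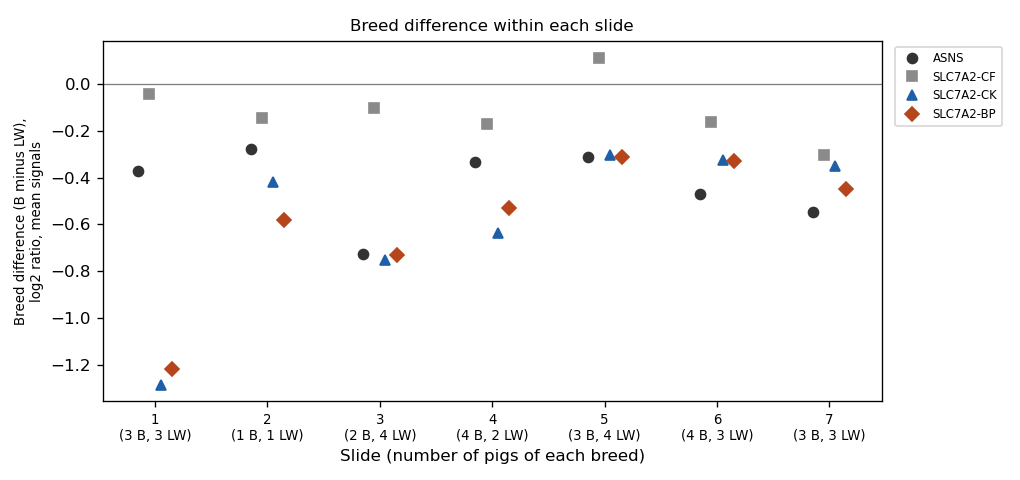
Breed difference (B minus LW) of the mean log2 ratio from mean signals within each of the 7 slides, for the ASNS probe and the 3 SLC7A2 probes; the horizontal axis gives the number of pigs of each breed on the slide. Every point of ASNS, SLC7A2-CK and SLC7A2-BP lies below 0, with slide 1 lowest for the 2 SLC7A2 probes at -1.28 and -1.22.

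The Cy5 channel held the same pool on every array, and none of the 4 probes passed the test for breed there. The Cy5 difference, B minus LW, lay between -0.02 and 0.03 (SE 0.05 to 0.10, limma, adjusted P = 1.00 for each), and 0% of tested probes were called there, with 33 at an unadjusted P under 0.05. The ASNS Cy5 signal ranged from 84.9 to 146 in B and from 94.6 to 139 in LW.

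Other genes of amino acid supply could be read only where the same list named their probes, so that every probe here had already been found lower in B on these arrays and the counts are a description. Of 47 genes induced through ATF4 when amino acids run short, 6 were named, with 7 probes. With mean signals 6 of these probes were called lower in B (median difference -0.23, against 0.00 and 9.49% called lower in B over all tested probes). PSAT1, which makes phosphoserine in serine synthesis, differed by -0.44 (SE 0.11, limma, adjusted P = 0.00283), from a mean of -0.23 ± 0.31 in B to 0.22 ± 0.40 in LW (SD, n = 20). Its log2 difference with processed signals was -0.77 (adjusted P = 0.000681).

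YARS, the tyrosyl-tRNA synthetase, was lower in B with both its probes, by -0.38 (SE 0.08) and -0.23 (SE 0.06), with adjusted P = 0.000719 and 0.00537 (limma). EIF4EBP1, a repressor of cap-dependent translation, differed by -0.17 (SE 0.04, adjusted P = 0.00555), and ALDH18A1, which opens proline and ornithine synthesis, by -0.11 (SE 0.04, adjusted P = 0.0329). CTH, which forms cysteine from cystathionine, was at -0.06 ± 0.25 in B and 0.15 ± 0.27 in LW (SD, n = 20). The difference of -0.21 did not pass with mean signals (SE 0.08, limma, adjusted P = 0.0520). With processed signals the CTH difference was -0.53 and passed (limma, adjusted P = 0.0207).

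Of 61 amino acid transporter genes, SLC7A2 alone was named. Of 55 genes of amino acid metabolism and tRNA charging, 9 were named, with 11 probes. With mean signals 9 of these probes were called lower in B (median -0.23), beside the 9.49% of all tested probes. Beyond those above, GADL1, a decarboxylase of acidic amino acids, differed by -0.80 (SE 0.18, adjusted P = 0.00193) and -0.87 (SE 0.20, limma, adjusted P = 0.00171) with its 2 probes. The mitochondrial synthetases EARS2 and YARS2 differed by -0.20 and -0.19 (SE 0.05 for each, adjusted P = 0.00201 and 0.00524). BCKDHB is a subunit of the enzyme complex that degrades branched-chain keto acids. It was at -0.57 ± 0.28 in B and -0.33 ± 0.26 in LW (SD, n = 20). The difference was -0.22 with mean signals (limma, adjusted P = 0.0658) and -0.23 with processed signals, which passed (limma, adjusted P = 0.0431). None of these probes passed the test for housing (limma, adjusted P = 1.00 for each).

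Muscle RNA comes from all cells of the tissue, and in such bulk samples fewer cells of a type and less RNA per cell cannot be told apart. Markers of cell types could also be read only where the list of genes higher in LW named them. Of 9 muscle fibre markers 2 were named, and MYH1, a fast myosin heavy chain, was lower in B (-0.66, SE 0.15, limma, adjusted P = 0.00159), while ACTA1, skeletal actin, had means of -0.93 in B and -0.60 in LW (adjusted P = 0.195). Of 5 fibroblast markers 2 were named. With mean signals 1 of 3 probes was called lower in B, beside 9.49% of all tested probes, a COL1A2 probe at -0.49 (SE 0.17, limma, adjusted P = 0.0334). With processed signals, where 14.4% of tested probes were called, the other COL1A2 probe also passed, at -0.45 (limma, adjusted P = 0.0183). DCN did not (-0.28, limma, adjusted P = 0.192). No marker of fat cells, macrophages or endothelium was named. A list of genes higher in LW cannot name a marker that is higher in B. The paper reports LIPE, among the fat cell markers looked for here, as more expressed in B, and more intramuscular fat in that breed. The part of these cell types in the ASNS and SLC7A2 differences was not tested.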

How the data were processed

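LM of 40 pigs was hybridised to 2-colour Agilent arrays on 7 slides scanned on 3 days, and the authors deposited the scanner output of Agilent Feature Extraction 9.5.3.1 (protocol GE2-v5_95_Feb07). Its columns hold spot intensity in both channels, per the file headers, as mean signals and as processed signals that the software had already corrected for background and dye. The authors also deposited log2 ratios per array, which per the methods were filtered, centred on the array median and scaled between arrays. These correlated at 0.994 (median over arrays, lowest 0.680) with ratios of the processed signals and at 0.704 (lowest 0.275) with the mean-signal ratios used here, and their column medians lay between -0.0148 and 0.0261.

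For the main values, mean signals were corrected with normexp (offset 50) in limma 3.58.1 (R 4.3.3), and log2(Cy3/Cy5) was centred on each array's median. Control spots and 2396 outlier spots were left out, 83 saturated spots were kept, and the 12222 probes tested had Cy3 well above background in 10 or more pigs of either breed. The processed signals were taken as log2 ratios in the same way, without another background step. Breed, housing system, the interaction of the factors and slide entered 1 model, in place of the 2 steps of the study's methods, with Benjamini-Hochberg adjustment over all tested probes and a threshold of 0.05. Arrays give no read depth, so that their number and the signal over background set the precision, from 10447 to 13441 probes well above background in Cy3 per array. P values treat litter mates as independent pigs. The fits were tested on simulated data with independent normal noise and no slide or litter effects. Those data cannot show how the fits behave where such effects are present.

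Spread was tested on absolute deviations from group medians, and correlations by permutation in NumPy. Symbols came from the study's list of genes higher in LW, with 683 probes, and gene positions from RefSeq. No column of an unmapped sample was present. The probes and lists were chosen with earlier results of these data known. The text names the 4 probes, list members with a named probe, and for each probe the 3 others with the most similar values over pigs. The alternatives are given with the results that moved.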

Additional observations from a re-analysis of the deposited data

Results flagged for a closer look

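In each group of 10 pigs, the highest or lowest value was compared with the rest of its group for each of the 4 probes, with mean and with processed signals. Of 32 such sets 9 had a pig far from the others, where chance gives about 1 in 20, and the sets share pigs and spots. For ASNS, LW alternative replicate 14 was at 1.41 with mean signals, with the next pig at 0.66.

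LW conventional replicate 8 was low for SLC7A2-CK, at -0.60 with mean and -0.38 with processed signals, where the next pigs were at 0.00 and 0.29, and for SLC7A2-BP at -0.31 with processed signals. LW alternative replicate 13 was at -1.16 for SLC7A2-CK with mean and at -1.04 with processed signals, with the next pigs at -0.41 and -0.16. B conventional replicate 5 was high for SLC7A2-BP, at 0.14 with mean and 0.35 with processed signals, with the next pigs at -0.33 and -0.15. For SLC7A2-CF, B alternative replicate 16 was at 0.53 with mean signals, with the next pig at 0.23.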

How the results depend on the processing

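ASNS, SLC7A2-CK and SLC7A2-BP were lower in B and called under every other signal, filter and model tried, 18 settings for ASNS and 19 for the others, with differences from -1.12 to -0.39, from -0.69 to -0.45 and from -0.80 to -0.46. No value was had for ASNS and SLC7A2-CF where a probe had to be well above background on all 40 arrays. SLC7A2-CF passed with processed signals (-0.40) and without background correction (-0.16) and missed the threshold in the other 16 settings. Without each pig in turn, the main differences lay between -0.48 and -0.37 for ASNS, -0.65 and -0.54 for SLC7A2-CK, -0.63 and -0.54 for SLC7A2-BP and -0.13 and -0.09 for SLC7A2-CF, with no call changed. With processed signals SLC7A2-CF ranged from -0.48 to -0.33 and lost its call in 19 of 40 such fits, which gave 3 to 4 called probes.

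Within slide 1, and so within scan day 1, SLC7A2-CK differed by -1.28 (processed signals -1.48) and SLC7A2-BP by -1.22 (-1.59), and within slide 5 SLC7A2-CF by 0.11. Within alternative housing 1 probe was called under the 2-step slide adjustment of the methods and 0 without slide 1, and within conventional housing 1 without slide 1. Leaving out a pig gave 1 to 3 in the alternative and 1 to 2 in the conventional system. With processed signals 1 pair of SLC7A2 probes disagreed in place of 2, and SLC7A2-BP minus SLC7A2-CK turned to -0.11 (deposited log2 ratios: -0.10). With processed signals 2 of the 12 correlations passed by r in place of 4, and by rho 2 passed with either signal. No housing or interaction term passed in any of 472 fits (lowest adjusted P = 0.909, limma). The fits without slide 1 or slide 2 were chosen after seeing the data, and the cause of these shifts was not tested.

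The numbers of the pigs do not pair B with LW pigs. The deviations of same-numbered pigs correlated between -0.36 and 0.34, over 0.1 in 3 of 20 pairs, and 2 B pigs correlated best with the LW pig of their own number. With the number as a replicate block and slide kept, ASNS differed by -0.39, SLC7A2-CK by -0.54, SLC7A2-BP by -0.55 and SLC7A2-CF by -0.11, and no call changed. The housing term cannot be fitted with that block.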

Other observations

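The probes whose values followed ASNS most closely from pig to pig, after group means were subtracted over 40 pigs, were both probes of MEF2C, a muscle transcription factor (Pearson's r of 0.68 and 0.65), and a probe of RRAS2, a small GTPase of the Ras family (r of 0.63). With processed signals the highest r of ASNS was 0.74, with a probe that has no symbol here, and 1 MEF2C probe was among the first 3 at 0.60.

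SLC7A2-CK and SLC7A2-BP were each other's closest probe among all tested, with r of 0.94 (0.96 with processed signals), and the next for SLC7A2-CK were at 0.72 and for SLC7A2-BP at 0.70 and 0.69, without symbols. SLC7A2-CF followed a probe without a symbol (r of 0.66), a probe of IL15, an interleukin made by muscle (r of 0.61), and a probe of SMOC2, a matricellular protein (r of 0.60). All these probes share the 40 arrays, and the values are a description.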
